A study of Mus musculus with 35 samples.

Results

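Retained-intron transcripts are RNAs that keep, whole or in part, an intron which other transcripts of the same gene splice out. The transcripts described here are those that GENCODE mouse release M21 types as retained_intron and whose mean over all 35 libraries was at least 1 TPM (a level corrected for transcript length and library depth). By that rule 4666 of 21836 retained_intron transcripts in the files were members, out of 139852 annotated transcripts of all types. They belonged to 3039 genes, of which 2043 had 1 member and 996 had several, and 4608 of them lay in protein-coding genes. They were chosen by the mean TPM alone, so their level is a description: Fam50a-203 (1.001 TPM) and Acad9-209 (1.002 TPM) lay just inside the threshold, and Stard3nl-203 (0.9999 TPM) and Thrb-204 (0.9997 TPM) just outside. Since most of the 35 libraries are not from cortex, the rule keeps a transcript that is low in cortex more easily than one that is low elsewhere. For that reason 28923 transcripts of all other types that met the same mean of 1 TPM are given beside the members.

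The RNA came from cells of male C57BL/6JRj mice caught on magnetic beads through ACSA2, a surface antigen of astrocytes that Atp1b2 encodes. For 4 months mice were given standard chow (SC) or a diet high in fat and sugar (HFHS, 58%), starting at 8 to 9 weeks of age, and each library pools the tissue of 2 animals. There were 6 SC and 5 HFHS libraries of hypothalamus, 5 and 7 of hippocampus, and 6 and 6 of cortex. The mice carried no transgene or deletion per the labels, and the cDNA kit (SMART-Seq v4) keeps no strand, so reads from a gene on the opposite strand cannot be told apart from those of a member. Cortex cells went over larger columns with larger reagent volumes than cells of the other regions, so column and region cannot be told apart in any difference from cortex. Library totals lay between 47578560 and 65982495 estimated reads, and p-values measure the spread between pools.

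A retained intron usually brings a stop codon into the reading frame, so the RNA either stays in the nucleus or is degraded by nonsense-mediated decay (NMD) once exported, and little protein comes from it. Cells use this to tune some genes: SR proteins, hnRNPs and CLK kinases, which control splicing, carry introns whose retention responds to their own activity. Certain introns of Mat2a, which makes S-adenosylmethionine, and of Ogt, which adds O-GlcNAc to proteins, are known to be held or released according to the cell's supply of those products. Whether the members described here hold those introns was not checked. Nor was it checked whether the introns within members bring in a stop codon.

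The label was checked against the gene models. A complete intron of at least 50 bases, one that a protein-coding transcript of the gene splices out, lay within 1624 members (34.8%). Another 2998 members (64.3%) held no such intron but had bases outside the exons of the gene's transcripts of other types. An exon that runs on into an intron and ends there is an example, but where these bases lie was not checked. The other 44 (0.943%) had neither such an intron nor such a base. Bases outside those exons are called a member's own, even where other retained_intron transcripts of the gene share them. In 695 members (14.9%) fewer than 10% of the bases were their own in that sense, and the TPM of such a transcript rests on how the authors' program divided shared reads. The complete introns within members were short, which the definition favours. Such an intron must lie within a single exon, and the members with one had a median transcript length of 1267 bases. The 2269 introns had a median length of 220 bases (quartiles 109 to 496) and a median GC content of 53.5%, and 61.0% were no longer than 300 bases. In the same genes, 40360 introns that no retained_intron transcript holds had a median length of 1255 bases (415 to 3228), and 19.9% were that short. Introns held only by retained_intron transcripts below the threshold were short too, with a median of 310 bases (128 to 813) and 49.0% no longer than 300. The usual GT and AG ends stood at 97.9% of the held introns, a start of GTAAGT (the common 5′ splice site) at 7.62%, and TATCCTT from the second base after G or A (the start of the minor, U12-type introns) at 0.176%, against 98.3%, 9.92% and 0.550% among 6369 introns held only by retained_intron transcripts below the threshold. These letters were read on the transcribed strand at the first bases of each intron, where the motifs do not overlap.

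A few introns are printed to show what members carry, and are referred to again beside their values. Each runs 5′ to 3′ on the transcribed strand in build GRCm38, read from the GENCODE M21 transcript itself, with the held intron in capitals and 10 bases of the flanking coding exons in lower case. The first set kept nearly the same share of its gene in all 6 groups: Mrps26-201 (intron at chr2:130564228-130564307, plus strand, mitochondrial ribosome subunit) and Hapln2-203 (chr3:88024119-88024329, minus strand, a matrix link protein of myelinated axons).
Mrps26-201: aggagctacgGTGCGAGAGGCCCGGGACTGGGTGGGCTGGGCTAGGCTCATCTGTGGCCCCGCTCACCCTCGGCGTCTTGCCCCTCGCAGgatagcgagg
Hapln2-203: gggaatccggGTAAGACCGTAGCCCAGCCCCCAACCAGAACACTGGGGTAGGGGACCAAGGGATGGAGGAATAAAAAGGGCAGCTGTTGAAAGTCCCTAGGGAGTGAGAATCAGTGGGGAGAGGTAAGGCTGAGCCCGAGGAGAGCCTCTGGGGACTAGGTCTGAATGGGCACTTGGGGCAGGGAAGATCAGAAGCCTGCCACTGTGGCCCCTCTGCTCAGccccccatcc
The second set comes from genes of splicing control and methionine metabolism: Hnrnpk-217 (chr13:58393775-58393852, minus strand), Clk1-204 (chr1:58417180-58417266, minus strand) and Mat2a-205 (chr6:72437118-72437370, minus strand).
Hnrnpk-217: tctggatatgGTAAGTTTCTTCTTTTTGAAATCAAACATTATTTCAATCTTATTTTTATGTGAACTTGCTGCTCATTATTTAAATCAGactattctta
Clk1-204: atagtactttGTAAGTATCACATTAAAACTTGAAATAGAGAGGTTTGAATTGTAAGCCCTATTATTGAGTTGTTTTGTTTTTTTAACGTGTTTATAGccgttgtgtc
Mat2a-205: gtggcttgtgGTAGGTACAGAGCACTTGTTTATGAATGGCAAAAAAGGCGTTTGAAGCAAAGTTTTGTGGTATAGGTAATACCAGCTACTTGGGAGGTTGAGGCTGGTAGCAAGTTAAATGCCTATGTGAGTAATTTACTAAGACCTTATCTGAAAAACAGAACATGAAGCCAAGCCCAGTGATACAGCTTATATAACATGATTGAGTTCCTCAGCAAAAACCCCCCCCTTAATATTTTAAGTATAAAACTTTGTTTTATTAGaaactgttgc
The third set held a larger share in cortex than in hypothalamus: Dnaic1-203 (chr4:41632289-41632388, plus strand) and Fasn-203 (chr11:120808327-120808501, minus strand).
Dnaic1-203: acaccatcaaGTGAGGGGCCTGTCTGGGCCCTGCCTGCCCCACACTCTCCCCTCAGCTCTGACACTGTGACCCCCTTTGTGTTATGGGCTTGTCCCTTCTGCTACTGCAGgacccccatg
Fasn-203: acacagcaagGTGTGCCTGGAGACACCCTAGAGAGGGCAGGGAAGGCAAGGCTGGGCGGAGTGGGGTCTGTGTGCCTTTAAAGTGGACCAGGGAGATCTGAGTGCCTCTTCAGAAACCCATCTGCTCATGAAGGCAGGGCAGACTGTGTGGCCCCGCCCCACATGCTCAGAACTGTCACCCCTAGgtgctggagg
The fourth set differed between hypothalamus and hippocampus, in level or in share: Nnat-204 (chr2:157560261-157560447, plus strand) and Aplp1-205 (chr7:30442361-30442479, minus strand).
Nnat-204: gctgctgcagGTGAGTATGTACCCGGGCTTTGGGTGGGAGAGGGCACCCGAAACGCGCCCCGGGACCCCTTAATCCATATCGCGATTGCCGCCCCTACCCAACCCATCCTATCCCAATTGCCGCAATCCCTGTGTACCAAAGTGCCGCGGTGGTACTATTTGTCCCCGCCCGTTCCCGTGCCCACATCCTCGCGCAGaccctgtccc
Aplp1-205: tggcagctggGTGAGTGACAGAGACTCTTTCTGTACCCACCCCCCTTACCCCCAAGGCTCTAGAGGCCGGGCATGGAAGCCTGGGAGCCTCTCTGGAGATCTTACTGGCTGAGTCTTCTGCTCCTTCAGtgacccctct
The short introns of Hnrnpk-217 and Clk1-204 were poor in GC (24.4% and 27.6%), whereas that of Mrps26-201 was rich in it (72.5%).

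Members were a small fraction of these libraries, and on average it was smallest in cortex. Summed over all members, they took 3.07% ± 0.593 of a library's TPM in hypothalamus on SC (SD, n = 6; 2.27% to 3.85%) and 3.09% ± 0.348 in hippocampus on SC (n = 5; 2.62% to 3.45%). In cortex on SC they took 2.08% ± 0.121 (n = 6; 1.93% to 2.28%), and only the highest cortex library reached the lowest hypothalamus library. On HFHS the fractions were 2.76% ± 0.328 (n = 5), 3.07% ± 0.361 (n = 7) and 2.26% ± 0.387 (n = 6; 1.78% to 2.87%) in the same order of regions. In a bulk sample, fewer cells of a type and less RNA per cell cannot be told apart. The members with a complete intron moved most: they took 1.10% of TPM in hypothalamus and 0.540% in cortex on SC, and the other members 1.97% and 1.54%. Transcripts annotated as NMD targets took 2.58% and 1.81%.

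Measured within the gene, the median member was also lower in cortex, while the mean over members differed less. The share of a member is its TPM as a percent of the summed TPM of all transcripts of its gene, and members of 1 gene divide the same sum. The median member held 6.76% ± 1.39 of its gene in hypothalamus libraries on SC (n = 6; 5.10% to 9.11%), 6.03% ± 1.06 in hippocampus (n = 5; 4.35% to 7.15%) and 3.56% ± 1.06 in cortex (n = 6; 2.36% to 5.08%). On HFHS these were 6.13% ± 1.21, 6.28% ± 1.26 and 3.96% ± 1.40. The mean share over members was 12.3% ± 1.32, 11.9% ± 1.10 and 10.7% ± 1.21 on SC, and there cortex (9.25% to 12.5%) overlapped hypothalamus (10.6% to 14.2%) and hippocampus (10.2% to 13.1%) widely. In the median share on SC no cortex library reached a hypothalamus library, and 1 cortex library, at 5.08%, passed the lowest of hippocampus; the diets overlapped in every region. Cortex libraries also had more members at 0: a mean of 416.5 on SC and 472 on HFHS, against 161 to 180 in the other groups. The choice of members by their mean over all regions favours this. The most were in cortex SC 6 (737) and cortex HFHS 6 (923), which raise the cortex means.

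**Figure D1:**
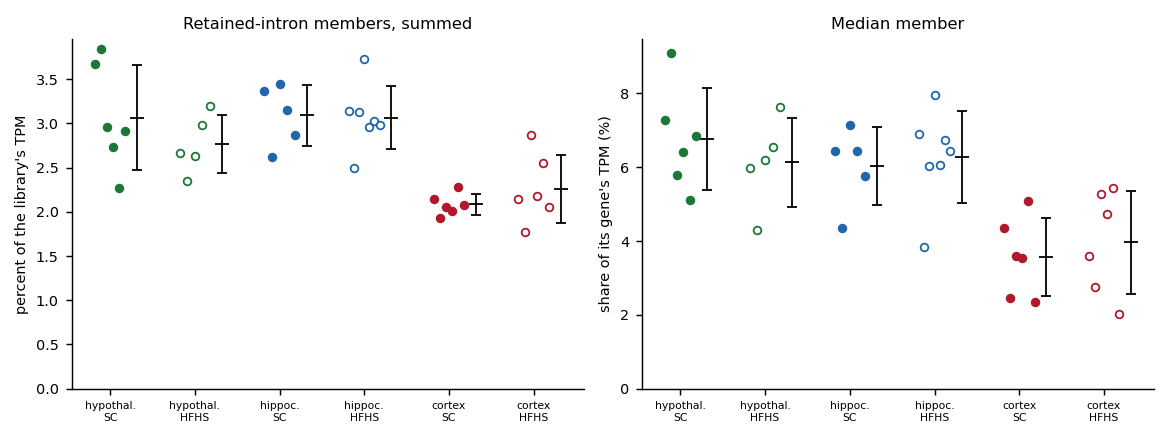
Each point is 1 library (filled, SC; open, HFHS), with the mean and SD of the group in black beside it. Left, TPM of all members as a percent of the library's TPM; right, the median member's share of its gene in percent. The cortex means are lowest in both, but single cortex libraries, such as HFHS 3 at 2.87% of TPM and HFHS 5 at a median share of 5.43%, lie above some libraries of the other regions, and the diets overlap within each region.

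Several measures of the libraries differed between the regions on SC, not all of them on HFHS, and their part in the result was not tested. Mitochondrially encoded transcripts took 9.26%, 7.65% and 14.5% of TPM in hypothalamus, hippocampus and cortex on SC; with them left out of the sum, members took 3.38%, 3.36% and 2.45%. Nuclear-retained RNAs such as Malat1 took 1.11%, 1.08% and 0.710% on SC, with overlapping ranges (0.576% to 2.26%, 0.721% to 1.48% and 0.292% to 1.59%). On HFHS they took 0.925%, 1.55% and 1.20%, and cortex was not lowest. The 15 astrocyte markers summed to between 3598 and 5878 TPM in hypothalamus, 2084 and 10866 in hippocampus and 11321 and 24820 in cortex on SC. The 10 oligodendrocyte markers summed to between 67222 and 93902, 44312 and 70944, and 6638 and 50516.5 TPM in the same order. Ependymal markers ranged from 4158 to 7752, from 1090 to 2402 and from 97.3 to 411 TPM. Oligodendrocyte precursor markers ranged from 171 to 430, from 28.6 to 60.3 and from 2.47 to 17.2 TPM on SC, without overlap, and were at 28.3 to 188 TPM in hypothalamus on HFHS. Endothelial markers averaged 480, 592 and 1267 TPM and neuron markers 183, 132 and 380 TPM, with overlapping ranges (225 to 875, 242 to 965 and 125 to 3959 TPM, and 116 to 228, 108 to 155 and 121 to 628 TPM). No marker of these lists was at 0 in any library. The read-weighted mean transcript length averaged 2804, 2829 and 2567 bases on SC, with the shortest library, cortex SC 6, at 1924 bases. On HFHS it averaged 2686, 2687 and 2760 bases, longest in cortex.

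The most abundant members included some whose share was nearly the same in every region and others, such as Atp5j-208 described further on, whose share differed. Apod-201 was the highest of all, at a mean of 905 TPM (chr16:31297156-31314594, minus strand; Apod encodes a lipid carrier made by glia). It ranged from 449 to 1452 TPM in hypothalamus on SC (median 748), was 855, 857, 1316, 1991 and 2145 TPM in hippocampus and 215 to 551 TPM in cortex (median 305). All hippocampus libraries lay above every cortex library, although that level difference was not called (edgeR 1.20 ± 0.46, adjusted p = 0.0746), and its share of Apod in the 3 regions was 57.8% ± 2.46, 56.4% ± 2.09 and 56.9% ± 1.43. Only 8.48% of its bases are its own. Ctsb-202, from the gene of the lysosomal protease cathepsin B, held 60.7% ± 1.29, 61.6% ± 0.896 and 60.8% ± 2.86 of its gene on SC, at means of 362, 539 and 445 TPM. Mrps26-201, a less abundant member whose GC-rich 80-base intron is printed above, was the usual product of its gene, at 92.0% to 94.4% in the 6 groups and 46.2 to 62.9 TPM. The label thus covers major as well as minor forms: in 161 members the mean share passed 50%, in 1964 it was under 5%, and the median over members was 6.30%.

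Hapln2-203 and Enpp2-207 followed their genes. Hapln2-203 was at 68.8 to 357 TPM in hypothalamus (median 139), at 157, 192, 233, 330 and 341 TPM in hippocampus and at 15.9 to 89.7 TPM in cortex (median 38.1). All hippocampus libraries exceeded all cortex libraries, while hypothalamus overlapped both. The level was higher than in cortex by 2.03 ± 0.43 (log2, SE) in hippocampus (edgeR adjusted p = 0.00193) and by 1.36 ± 0.41 in hypothalamus (adjusted p = 0.0178, 0.0948 without hypothalamus SC 1), but the share stayed at 45.3% to 49.2% in all 6 groups. Enpp2-207, from the gene of autotaxin, which makes lysophosphatidic acid, was at 139, 273, 378, 691 and 712 TPM in hippocampus and at 30.03 to 118 TPM in hypothalamus. Its highest hypothalamus library lay below the lowest hippocampus library, a level lower by -3.08 ± 0.55 (edgeR adjusted p = 0.00266). Its share was 5.43% ± 0.537 and 4.72% ± 0.447.

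Hypothalamus and cortex on SC differed in many members, and most that differed were higher in hypothalamus. By level (edgeR on estimated counts, TMM scaling, adjusted over all transcripts tested), 1013 of 4627 members tested passed an adjusted p of 0.05, 815 higher and 198 lower in hypothalamus. That is 21.9% of members, where 28.2% of the other transcripts at 1 TPM or more and 18.8% of all transcripts were called (10.1% higher, 8.71% lower): members were called less often than the former and more often than the latter, and that difference in frequency was not tested. Of the other transcripts 11.6% were higher and 16.6% lower. The median difference was 0.68 for members and -0.11 for the others. The scaling sets where 0 lies: without TMM the medians were 1.05 and 0.25, and on log2 TPM 0.95 and 0.44, so that members exceeded the others by 0.79, 0.79 and 0.51. The choice of members by their mean over all regions bears on this lean. Among 3215 retained_intron transcripts with a mean of at least 1 TPM in cortex itself, a choice made after seeing the data, 402 were higher and 208 lower in hypothalamus (median 0.28), and 352 were higher and 176 lower in hippocampus (median 0.22). Of other transcripts chosen in that way 7.57% were higher and 19.1% lower in hypothalamus (median -0.29), and 7.85% and 14.1% in hippocampus (median -0.23). Without TMM 1344 members were called, 1251 of them higher, and with limma on log2 TPM 2245, of which 2146 were higher.

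The share of the gene does not depend on that scaling, and it leaned the same way. It was tested with limma as the log2 ratio of the member's TPM to the TPM of the gene's other transcripts, each plus 0.5, and all share differences are on that scale. Of 4631 members tested, 1150 (24.8%) were called, 968 with a higher and 182 with a lower share in hypothalamus, in 891 genes. The median share difference of the members was 0.39, and it moved with the pseudocount: with 0.1 in place of 0.5 it was 0.71 (1049 higher, 96 lower) and with 1 it was 0.22 (878 higher, 263 lower). Of the other transcripts 14.7% were called, 5.79% higher and 8.92% lower, and of all transcripts 16.4% (8.28% and 8.1%). Shares within a gene add to a whole, so a higher share of a member is a lower share of other transcripts of that gene. Members with a complete intron leaned furthest: 29.5% were higher and 2.97% lower (525 of 1615 called, median 0.53), against 16.3% and 4.44% of the members without one (median 0.30). Among members with fewer than 10% own bases, 10.0% were higher and 5.08% lower, with a median of 0.05. The 833 introns of members called higher and the 70 of members called lower had median lengths of 226 and 157.5 bases. Their quartiles overlapped (115 to 501 and 99.25 to 382.75 bases), and their median GC contents were 53.7% and 55.5%. For the 1665 introns of members not called the medians were 196 bases and 53.6%. Leaving out 1 library at a time, between 808 and 1159 members were called by share and between 661 and 1049 by level, the fewest by level (661) without hypothalamus SC 2. Among 3117 retained_intron transcripts chosen by their mean in cortex, as above, 672 shares were higher and 113 lower (25.2% called), where 14.0% of other transcripts chosen in that way were called; the median was 0.36.

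**Figure D2:**
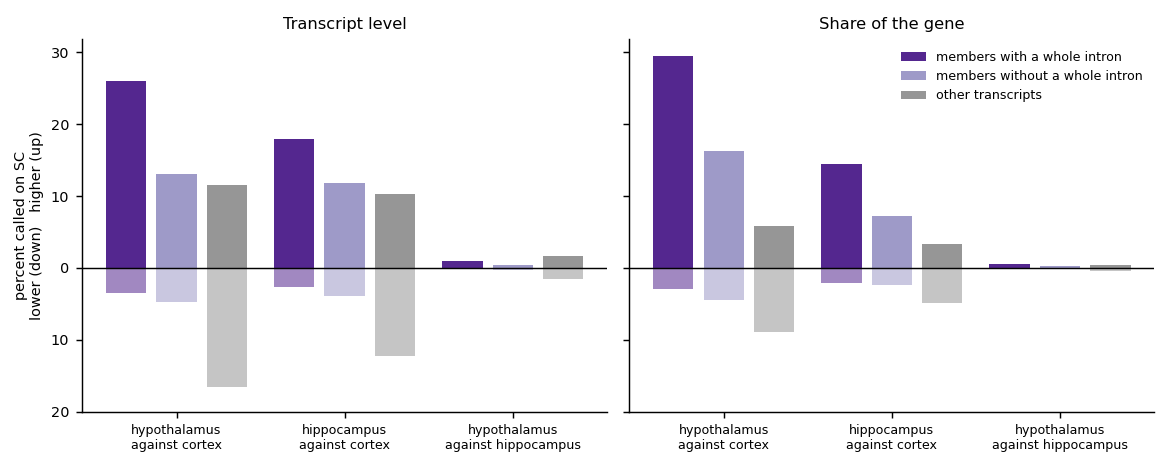
Percent of transcripts called at an adjusted p under 0.05 on SC, higher in the first-named region (up) or lower (down, paler), for level (edgeR) and share of the gene (limma). Against cortex, members with a complete intron were called higher most often (29.5% by share in hypothalamus), and other transcripts leaned to the lower side; few transcripts were called between hypothalamus and hippocampus.

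Over all members tested, 17.6% were higher and 4.28% lower in hypothalamus than in cortex by level, and 20.9% and 3.93% by share, and the counts of each gene list stand against these. Most members in genes of astrocytes had a higher share outside cortex. The list of astrocyte markers held 11 members in 8 genes, and 9 had a higher and none a lower share in hypothalamus (limma, median 2.23, against 0.39 over all members); by level none was higher and 2 were lower (median -0.09). Ntsr2-205, from the gene of neurotensin receptor 2, contains 3 complete introns. It was at 44.7 to 226 TPM in hypothalamus (median 54.9) and 13.2 to 105 TPM in cortex (median 67.4), and its level difference was -0.09 ± 0.51 (edgeR adjusted p = 0.931). Its share was 8.71% to 30.5% in hypothalamus (median 16.0%) and 0.818% to 6.05% in cortex (median 3.95%). Every hypothalamus library lay above every cortex library, a difference of 2.43 ± 0.48 (limma adjusted p = 0.000544), while the whole gene stood at 476 TPM in hypothalamus and 1701 TPM in cortex.

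Other genes of astrocytes gave members of the same kind. Slc1a3-206, from the glutamate transporter gene GLAST, was at 8.79 ± 3.93 TPM in hypothalamus and 8.67 ± 3.31 TPM in cortex. Its share was 1.63% to 2.95% (median 2.36%) and 0.168% to 2.21% (median 0.535%), and only cortex SC 6, at 2.21%, reached into the range of hypothalamus, with a difference of 2.10 ± 0.58 (limma adjusted p = 0.0114). Bcan-202, outside the list and from the gene of the matrix proteoglycan brevican, held 4.47% to 8.71% in hypothalamus (median 5.48%) and 0.117% to 1.47% in cortex (median 0.828%). These did not overlap, and the share was higher by 2.98 ± 0.40 (limma adjusted p = 3.69e-06). Aldoc-205, from the gene of the brain aldolase, had a lower level in hypothalamus (-1.76 ± 0.51, edgeR adjusted p = 0.0140; not called without TMM) and a higher share, 0.771% ± 0.338 against 0.300% ± 0.0698 (1.33 ± 0.32, limma adjusted p = 0.00379). The gene itself was at 1362 TPM in hypothalamus and 7952 TPM in cortex. Hypothalamus SC 2 had the highest share of its group for Ntsr2-205 and Bcan-202, and the share calls of these members, Slc1a3-206 and Aldoc-205 held without it and without each other SC library.

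Genes of glucose and lipid metabolism had 33 members in 19 genes. By share 18 were higher and 2 lower in hypothalamus (median 1.33), and by level 4 were higher and 3 lower (median 0.22). That is 54.5% higher by share, and 12.1% higher by level, which is under the 17.6% of all members. Apoe-211, from the gene of apolipoprotein E, the main lipid carrier that astrocytes secrete, was at 27.5 ± 14.8 TPM in hypothalamus and 21.8 ± 6.53 TPM in cortex. Its share was 0.189% to 0.592% (median 0.233%) against 0.0369% to 0.121% (median 0.0976%), with no overlap (1.69 ± 0.35, limma adjusted p = 0.000894). The 2 members with a lower share were in genes of lipid synthesis. Srebf2-205, from the gene of the transcription factor SREBP2, which turns on cholesterol synthesis, held 28.0% to 61.8% of its gene in hypothalamus (median 36.6%) and 48.9% to 73.2% in cortex (median 62.7%). Only hypothalamus SC 6, at 61.8%, reached into the range of cortex, and both share (-1.32 ± 0.31, limma adjusted p = 0.00304) and level (-1.39 ± 0.15, edgeR adjusted p = 6.73e-08) were lower in hypothalamus. A 120-base intron that Srebf2-205 holds lies between coding exons and has a reading frame without a stop codon. The frame in use was not checked, so this form may be coding. Fasn-203, from the fatty acid synthase gene, whose held intron is printed above, had a share of 2.57% to 42.2% in hypothalamus (median 6.29%) and 24.998% to 67.4% in cortex (median 34.1%). The overlap came from hypothalamus SC 6, at 42.2%; the share call (-2.50 ± 0.85, limma adjusted p = 0.0389) was lost without any of 10 of the 17 SC libraries (adjusted p up to 0.0953), whereas the lower level (-2.72 ± 0.68, edgeR adjusted p = 0.00439) held without each.

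Of 6 members in Mat2a and Ogt, 4 had a higher share and 4 a higher level in hypothalamus, and none was lower (medians 1.05 and 1.98). Mat2a-207 (chr6:72438802-72439556, minus strand) holds no complete intron and has 544 bases of its own. It was at 8.09 to 39.2 TPM in hypothalamus (median 21.7), at 10.5, 12.8, 16.8, 27.2 and 33.6 TPM in hippocampus and at 0.475 to 4.90 TPM in cortex (median 3.30). No cortex library reached any library of the other regions on SC, and the level was higher in hypothalamus by 2.54 ± 0.46 and in hippocampus by 2.28 ± 0.47 (edgeR adjusted p = 0.000153 and 0.00149). Its share was 3.87% to 12.3% (median 7.61%), 3.81%, 3.93%, 5.63%, 7.62% and 8.16%, and 1.04% to 2.44% (median 1.65%) in the 3 regions. Again cortex did not overlap the others; the share differences were 1.91 ± 0.38 and 1.5 ± 0.40 (limma adjusted p = 0.000667 and 0.0160), the second lost without hippocampus SC 1 or 3 (adjusted p up to 0.0555). Mat2a-205, which holds the 253-base intron printed above, went the same way in hypothalamus, 1.53% to 3.33% (median 2.24%) against 0.249% to 1.25% (median 0.683%), without overlap (1.33 ± 0.28, limma adjusted p = 0.00102). That intron is number 2 of 11 from the 5′ end among the introns of the gene's coding transcripts, and Mat2a-207 lies further 5′. Neither was matched to the intron known to respond to S-adenosylmethionine. Ogt-204 was at 2.999 to 23.1 TPM in hypothalamus (median 8.99) and 0.0841 to 4.44 TPM in cortex (median 1.91); the groups overlapped slightly and the level was higher by 2.03 ± 0.53 (edgeR adjusted p = 0.00676).

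**Figure D3:**
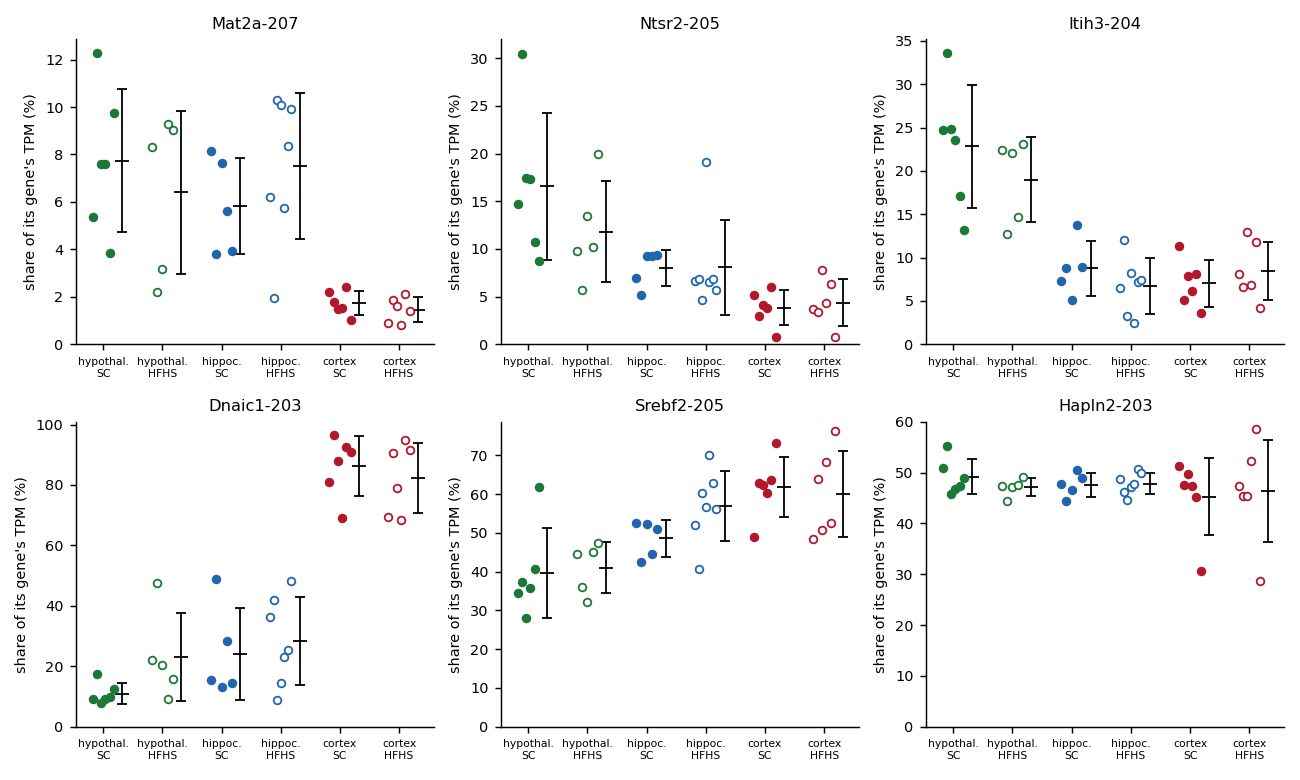
Share of its gene's TPM (percent) of 6 members in each library (filled, SC; open, HFHS), with group mean and SD. Mat2a-207 and Ntsr2-205 were lowest in cortex, Itih3-204 was highest in hypothalamus, Dnaic1-203 and Srebf2-205 were highest in cortex, and Hapln2-203 stayed near 45.3% to 49.2%.

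In genes of splicing regulators, more members were called higher in hypothalamus by level than by share. SR proteins and SR-like factors had 46 members in 21 genes: by level 19 were higher and none lower in hypothalamus (median 1.04), by share 5 higher and 1 lower (median 0.45). The 41.3% higher by level stand against 17.6% of all members, and the 10.9% higher by share against 20.9%. Srsf5-212 was at 54.3 to 154 TPM in hypothalamus (median 94.98) and 5.54 to 55.1 TPM in cortex (median 30.9). The ranges met only at their ends, and the level was higher by 1.24 ± 0.35 (edgeR adjusted p = 0.0109, 0.0516 without hypothalamus SC 2), while its share, 23.6% against 16.0%, was not called (limma adjusted p = 0.101). Splicing kinases had 24 members in 9 genes, 7 higher by level and none lower (median 1.17), and 3 higher and 1 lower by share (median 0.11), which is 29.2% higher by level and 12.5% by share. Clk4-207 held 10.5% to 15.1% of its gene in hypothalamus (median 11.8%) and 4.98% to 10.4% in cortex (median 6.99%). These did not overlap, and both level (1.27 ± 0.26, edgeR adjusted p = 0.000697) and share (0.72 ± 0.19, limma adjusted p = 0.00851) were higher. Clk1-204, with its 87-base intron printed above, held 9.91% ± 2.65 and 11.5% ± 3.51, a difference of -0.37 ± 0.21 that was not called (limma adjusted p = 0.251).

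The hnRNPs and related RNA-binding proteins had 36 members in 17 genes, 13 higher and 1 lower by level (median 1.12) and 7 higher and 1 lower by share (median 0.60), which is 36.1% higher by level and 19.4% by share. The 1 lower in both was Hnrnpk-217, which holds the 78-base intron printed above. It held 9.13% to 25.3% of its gene in hypothalamus (median 14.3%) and 18.2% to 35.02% in cortex (median 23.0%). The groups overlapped, and the lower share (-0.79 ± 0.23, limma adjusted p = 0.0170) was lost without cortex SC 6 or hypothalamus SC 1 or 2 (adjusted p up to 0.0638). Its lower level (-0.74 ± 0.23, edgeR adjusted p = 0.0226) was lost without hypothalamus SC 3 (adjusted p = 0.0524), without TMM and on log2 TPM. Spliceosome subunits had 38 members in 19 genes, 6 higher and 2 lower by level and 6 higher and 3 lower by share (medians 0.76 and 0.44). The 15.8% higher in each are under the 17.6% and 20.9% of all members. Prpf31-205, from a gene of the U4/U6.U5 particle, was one of the lower ones by share. Its share was 21.1% to 33.1% in hypothalamus (median 29.4%) and 32.8% to 73.2% in cortex (median 38.8%), nearly separate (-0.94 ± 0.29, limma adjusted p = 0.0232, up to 0.0768 without cortex SC 6 or hypothalamus SC 3). Genes of NMD and RNA export had 12 members, 2 higher by level and none called by share (limma; medians 0.81 and 0.22). Clock genes had 6, none called by level (edgeR) and 2 higher by share; Dbp-202, from the clock output factor DBP, held 20.04% ± 3.43 in hypothalamus and 10.6% ± 4.15 in cortex (1.13 ± 0.29, limma adjusted p = 0.00616).

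**Figure D4:**
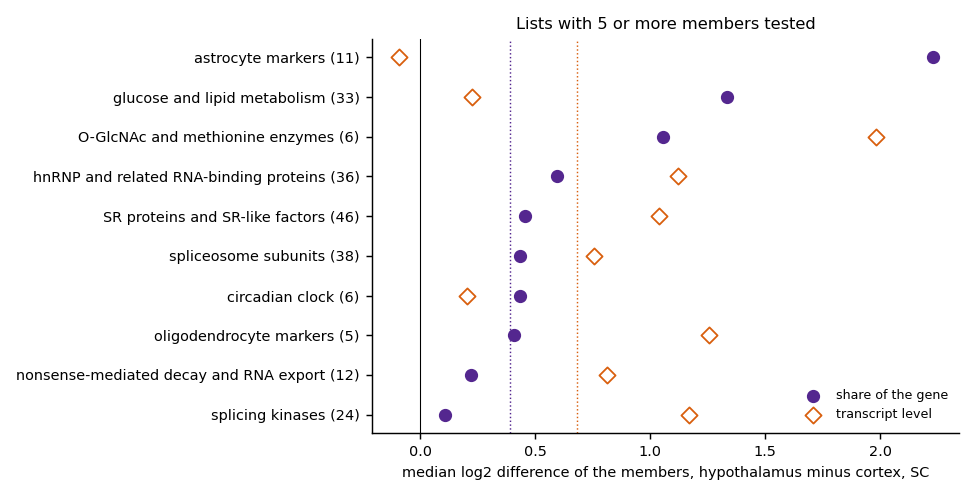
Median log2 difference of the members tested, hypothalamus minus cortex on SC, for each list with 5 or more members (number in brackets); circles, share of the gene; diamonds, level. The dotted lines give the medians over all members, 0.39 for share and 0.68 for level. Astrocyte markers stand at 2.23 by share and -0.09 by level, and splicing kinases at 0.11 and 1.17.

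Members in genes of ependymal cells, which carry cilia and line the brain's ventricles, rose in level, and those of 1 gene fell in share. All 3 members of the ependymal list were higher by level in hypothalamus (median 4.02), and the 2 of Ccdc153 had a lower share (median -1.94). Ccdc153 was near 0 in cortex, and the lower share of Ccdc153-205 (-1.94 ± 0.48, limma adjusted p = 0.00484) turned to 0.09 with 0.1 in place of 0.5 added to each TPM. Rarres2-202, from the chemerin gene, was at 4.86 to 16.0 TPM in hypothalamus (median 9.96) and 0.310 to 1.02 TPM in cortex (median 0.595), without overlap (3.38 ± 0.47, edgeR adjusted p = 4.30e-06). The largest fall in share among all members called was that of Dnaic1-203, from a dynein gene of motile cilia, whose 100-base intron is printed above. It held 7.86% to 17.5% of its gene in hypothalamus (median 9.43%), 13.0%, 14.3%, 15.5%, 28.2% and 48.8% in hippocampus and 68.9% to 96.5% in cortex (median 89.4%). Cortex lay above all libraries of the other regions; the share was lower by -5.77 ± 0.58 in hypothalamus and -4.52 ± 0.61 in hippocampus (limma adjusted p = 3.15e-08 and 1.65e-05). Its TPM was also lower, 7.64 ± 1.72 in hypothalamus against 32.5 ± 17.8 in cortex (edgeR -3.09 ± 0.61, adjusted p = 0.000411), although the gene stood at 72.5 and 37.1 TPM. Odf3b-205, from a gene of sperm tail and cilia proteins, was at 8.00 to 16.9 TPM in hypothalamus and 0.0758 to 2.43 TPM in cortex. Its share was lower in hypothalamus, 5.77% ± 0.946 against 17.9% ± 10.8 (-2.29 ± 0.31, limma adjusted p = 4.34e-06). Mapk15-202, from the gene of an atypical MAP kinase of cilia, was at 22.4 to 46.3 TPM in hypothalamus and 0.0156 to 0.591 TPM in cortex (edgeR 6.56 ± 0.74, adjusted p = 1.2e-07), and Cdhr4-214 at 61.5 to 106 and 0.626 to 2.63 TPM (4.97 ± 0.50, adjusted p = 1.9e-08). Neither overlapped between the regions. The ependymal markers as a whole differed between these regions, as given above, and their part in these differences was not tested. Oligodendrocyte markers had 5 members, none called by share (limma) and 2 higher by level (median 1.26).

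Among members outside the lists, the largest rises in share in hypothalamus were those of Sorl1-204 and Ssbp4-202. Sorl1-204 (chr9:41977562-41984570, minus strand), from the gene of the sorting receptor SORLA, held 39.8% to 68.6% of its gene in hypothalamus (median 59.8%) and 21.4%, 31.1%, 42.5%, 50.2% and 51.2% in hippocampus. In cortex it was listed at 0 in most libraries, the highest at 8.45%, so cortex lay below all others (limma 4.29 ± 0.54 and 3.27 ± 0.56, adjusted p = 1.07e-06 and 0.000328). Only 35 of its bases are its own, so its reads are nearly all shared with other transcripts. Ssbp4-202, from the gene of a single-stranded DNA binding protein, held 16.5% to 22.2% in hypothalamus (median 18.6%), 4.36%, 8.62%, 10.3%, 11.4% and 14.4% in hippocampus, and 0.413% to 2.58% in cortex (median 0.969%). The 3 regions did not overlap at all (limma against cortex 4.04 ± 0.39 and 2.93 ± 0.41, adjusted p = 1.53e-08 and 2.51e-05). Hspe1-202, from the mitochondrial chaperonin gene HSP10, was at 6.45 to 25.6 TPM in hypothalamus and 0.0971 to 0.830 TPM in cortex. Its share was higher by 2.99 ± 0.53 (limma adjusted p = 0.000144), without overlap, while its gene stood at 307 and 213 TPM.

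A few abundant members had a lower share in hypothalamus than in cortex. Atp5j-208, from the gene of an ATP synthase subunit, was at 25.97 to 133 TPM in hypothalamus (median 75.2) and 129 to 715 TPM in cortex (median 220). The ranges met at their ends, and its share, 10.9% ± 4.76 against 24.97% ± 6.59, was lower by -1.54 ± 0.35 (limma adjusted p = 0.00243). Fam98c-202 held 13.5% to 21.2% in hypothalamus, 11.3%, 13.6%, 13.6%, 16.4% and 19.6% in hippocampus and 29.5% to 45.8% in cortex, without overlap with cortex (limma -1.63 ± 0.23 and -1.77 ± 0.25, adjusted p = 9.09e-06 and 2.23e-05). Thbs3-210, from the thrombospondin 3 gene, held 55.8% ± 7.89, 53.8% ± 6.37 and 83.6% ± 5.43 (limma -2.02 ± 0.38 and -2.14 ± 0.39, adjusted p = 0.00028 and 0.000654). In both genes the transcript was the form that cortex used more.

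Hippocampus differed from cortex in fewer members and in the same direction. By level 806 of 4627 (17.4%) were called, 645 higher and 161 lower (median 0.59), where 22.6% of other transcripts were called, 10.3% higher and 12.3% lower, and 13.8% of all (7.43% and 6.4%). By share 561 of 4631 (12.1%) were called, 454 higher and 107 lower (median 0.27; 0.54 with a pseudocount of 0.1 and 0.13 with 1), against 8.3% of other transcripts (3.38% and 4.92%) and 8.93% of all (4.44% and 4.49%). Members with a complete intron were higher in 14.5% and lower in 2.11%. Both comparisons use the same cortex libraries, so they are not independent. Leaving out 1 library at a time gave between 332 and 598 share calls and between 496 and 807 level calls, the fewest without hippocampus SC 1 (350 and 534), hippocampus SC 3 (332 and 496) or, by share, cortex SC 2 (336). Astrocyte markers again had a higher share in 6 of 11 members and a lower in none (median 1.74), and a lower level in 4 (median -1.02). Metabolic genes had 11 of 33 higher and none lower by share (median 0.97). SR proteins had 11 and hnRNPs 10 members higher by level and none lower; by share none of 46 and 3 of 36 were called (limma). Fth1-208, from the ferritin heavy chain gene, showed how small such a form can be: it held 0.118%, 0.139%, 0.179%, 0.203% and 0.221% of its gene in hippocampus and 0.00317% to 0.0363% in cortex (median 0.0202%). These did not overlap (limma 3.10 ± 0.48, adjusted p = 0.000102), and its level was 42.5 ± 18.9 against 3.72 ± 2.31 TPM.

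On HFHS the same contrasts, added after seeing the data, gave fewer calls of members against cortex in hypothalamus and in hippocampus. By share 545 of 4631 members (11.8%) differed between hypothalamus and cortex, 427 higher and 118 lower (median 0.24), where 9.55% of other transcripts were called. Between hippocampus and cortex 523 (11.3%) did, 420 higher and 103 lower (median 0.30), where 8.73% of other transcripts were called. Of the 1150 shares called in hypothalamus on SC, 1090 (94.8%) had the same sign on HFHS, 386 were called in that direction and 1 in the other; of the 561 called in hippocampus, 547 (97.5%) had the same sign and 261 were called. The HFHS libraries are other animals, but the members share genes and reads. By level, 460 and 506 members were called (medians 0.37 and 0.53), against 16.3% and 16.2% of other transcripts. Those were also called more often on SC, at 28.2% and 22.6%.

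Few members differed between hypothalamus and hippocampus, and most of these calls rested on single libraries. By level 41 of 4627 members (0.886%) were called, 29 higher and 12 lower in hypothalamus, where 3.21% of other transcripts (1.63% and 1.58%) and 1.72% of all (0.907% and 0.809%) were called. By share 22 of 4631 (0.475%) were called, 16 higher and 6 lower, against 0.742% of other transcripts (0.363% and 0.38%) and 0.698% of all (0.36% and 0.338%). No list had a called member. Leaving out 1 library at a time gave 18 to 54 level calls and 3 to 27 share calls, the fewest without hippocampus SC 1; without hypothalamus SC 2 there were 23 and 7, and without hypothalamus SC 4 there were 25 and 6. Itih3-204, from the gene of a hyaluronan-binding serum protein of the inter-alpha-trypsin inhibitor family, was called by level and by share. It was at 52.9 to 274 TPM in hypothalamus (median 79.0) and at 2.93, 3.95, 4.62, 9.19 and 15.5 TPM in hippocampus. All hypothalamus libraries were far above (edgeR 3.75 ± 0.66, adjusted p = 0.00216), as was the gene, at 441 against 81.2 TPM. Its share was 13.2% to 33.6% (median 24.2%) against 5.15%, 7.28%, 8.79%, 8.90% and 13.8%, overlapping through hypothalamus SC 6 and hippocampus SC 4. The share call (1.52 ± 0.35, limma adjusted p = 0.0297) was lost without hippocampus SC 1, 2 or 3 or hypothalamus SC 1, 2, 3 or 4 (adjusted p up to 0.0822). Another member of the gene, Itih3-202, went the other way in share. Leaving out 1 library at a time, its share was lower in hypothalamus by -3.67 to -4.42 (limma adjusted p between 0.0135 and 0.0743).

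Other members that differed between these regions are Nnat-204, Paqr6-201 and Aplp1-205. Nnat-204, from the neuronatin gene, which encodes a membrane proteolipid of the endoplasmic reticulum and whose 187-base intron is printed above, was at 72.7 to 238 TPM in hypothalamus (median 135) and 10.8, 16.2, 28.2, 31.1 and 33.1 TPM in hippocampus. The groups were apart (edgeR 2.61 ± 0.59, adjusted p = 0.0147, 0.0551 without hippocampus SC 1), and the share, 2.95% ± 1.17 and 1.94% ± 0.625, was not called. Paqr6-201, from a membrane progestin receptor gene, was at 12.1 to 49.7 TPM in hypothalamus (median 14.4) and 2.35, 2.72, 2.86, 3.91 and 5.20 TPM in hippocampus. It too was apart (edgeR 2.44 ± 0.46, adjusted p = 0.00423), and this level call held without each library. Aplp1-205, from the gene of an amyloid precursor-like protein, with its 119-base intron printed above, held 0.327% to 0.957% of its gene in hypothalamus (median 0.579%), 0.155%, 0.197%, 0.244%, 0.262% and 0.271% in hippocampus and 0.497% to 0.940% in cortex. Hippocampus lay below both other regions, while the gene was at 4617 TPM there and at 2126 and 1738 TPM in the others. Against cortex the lower share held without each library (limma -1.62 ± 0.33, adjusted p = 0.00187); in hypothalamus the share was higher than in hippocampus by 1.38 ± 0.33 (limma adjusted p = 0.0407), a call lost without 10 of the 17 (adjusted p up to 0.125).

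Genes with many members showed the pattern as a sum. Aup1 and Gas5 had 12 members each, and their summed share divides 1 denominator. The members of Aup1, a lipid droplet and endoplasmic reticulum protein gene, together held 43.3% ± 9.98, 34.0% ± 5.61 and 22.3% ± 8.28 of the gene in hypothalamus, hippocampus and cortex on SC, and 35.02%, 37.5% and 23.4% on HFHS. On SC the libraries of hypothalamus (33.3% to 59.9%) lay just above those of cortex (13.6% to 33.1%), and hippocampus overlapped both; these sums were given no test. Those of Gas5, a host gene of small nucleolar RNAs, held 6.50%, 11.6% and 2.70%, and 6.60%, 10.8% and 4.45%. Pcyt2, an enzyme gene of phosphatidylethanolamine synthesis, had 7 members that held 54.8%, 48.3% and 33.2%, and 51.6%, 48.7% and 36.1%. In each of these genes cortex was lowest under both diets. The group means of Sept4, with 9 members, lay between 8.04% and 12.5%, and those of Tmem191c, with 8, between 46.1% and 56.3%.

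Almost no member passed the test for diet. In simulated data of these comparisons, the level test found 0% to 1% of 2-fold and 6% to 26% of 4-fold changes. The share test found 11% to 17% of 2-fold and 62% to 66% of 4-fold changes. Few calls therefore do not show that few members changed in level, or by 2-fold in share. By level no member passed the threshold in any region (edgeR, 0 of 4443 in hypothalamus, 0 of 4442 in hippocampus and 0 of 3923 in cortex; 0% of all transcripts tested were called). At an unadjusted p under 0.05 there were 126, 162 and 108 members, fewer than the 1 in 20 that chance alone would give. DESeq2 called 6, 2 and 12 members (and 78, 43 and 372 of all transcripts), and limma on TPM called 0 in each. By share (limma) 0, 0 and 1 of 4631 members were called, where 0%, 0% and 0.0392% of all transcripts (0.0107% higher and 0.0285% lower in cortex) and 0%, 0% and 0.0427% of other transcripts (0.0128% and 0.0299%) were, with 202, 284 and 242 at an unadjusted p under 0.05. The counts by share at an unadjusted p lie near that 1 in 20. The median share difference of the members was -0.11, 0.04 and 0.04. Whether the diet's effect on share differed between regions was tested as an interaction, and 0 members were called in any of 3 pairs (limma, with 0%, 0.00356% and 0% of all transcripts called). At an unadjusted p under 0.05 there were 311, 243 and 116 members, from above to below 1 in 20.

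The 1 member called was Kif1b-209 in cortex, from the gene of a kinesin motor that carries mitochondria and synaptic vesicle precursors. It held 5.49% to 18.3% of its gene on SC (median 14.3%) and 0.469% to 2.66% on HFHS (median 1.56%), and 1.96 to 6.44 TPM against 0.259 to 1.56 TPM. All HFHS libraries lay below all SC libraries, a lower share by -2.63 ± 0.40 (limma adjusted p = 0.0446, n = 6 and 6), while the gene stood at 31.3 and 56.3 TPM. The call was lost without any 1 of cortex SC 1 to 5 or cortex HFHS 2 to 5 (adjusted p up to 0.173), with 0.1 or 1 added to each TPM in place of 0.5, and with the gene's other transcripts held to at least 5 TPM. A fit with the replicate number as a block did not call it either. Its level difference (-2.45 ± 0.44) was called by DESeq2 and not by edgeR (adjusted p = 0.238). In the other regions its share spread widely: 1.47% to 17.8% on SC and 0.724% to 39.4% on HFHS in hypothalamus, with no call.

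Some members were apart or nearly apart between the diets without passing the test. They were named because their p-values were among the smallest of a comparison, which favours groups that do not overlap. How many of all transcripts were apart in this way was not counted. Rap1gap-210, from the gene of a GTPase activator of Rap1, was at 3.35 to 7.38 TPM in hypothalamus on SC (median 4.55) and 1.11, 1.27, 1.55, 1.59 and 1.83 TPM on HFHS. The groups did not overlap (edgeR -1.64 ± 0.25, adjusted p = 0.323; called by DESeq2), and the gene itself was at 64.4 and 32.9 TPM. Acp2-202, from the gene of lysosomal acid phosphatase, held 22.8%, 23.8%, 24.1%, 31.2% and 31.9% of its gene in hippocampus on SC and 36.4% to 54.8% on HFHS (median 49.6%). These did not overlap either (limma 1.18 ± 0.22, adjusted p = 0.570). Ube2m-205, from the gene of a NEDD8-conjugating enzyme and without a base of its own, was at 15.8 to 114 TPM in cortex on SC (median 77.4) and 7.72 to 20.2 TPM on HFHS (median 14.4). The groups overlapped through 1 SC library, the whole gene stood at 163 and 29.7 TPM, and its share was 43.9% and 48.9%; the level (-2.21 ± 0.39, edgeR adjusted p = 0.238) was called by DESeq2 and without the 3 libraries of shortest mean transcript length. Srsf2-203, from the gene of an SR protein, held 0.682% to 2.21% of its gene in cortex on SC (median 1.36%) and 2.16% to 11.3% on HFHS (median 5.45%), nearly apart and not called (limma 1.94 ± 0.38, adjusted p = 0.146; called without cortex HFHS 1).

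**Figure D5:**
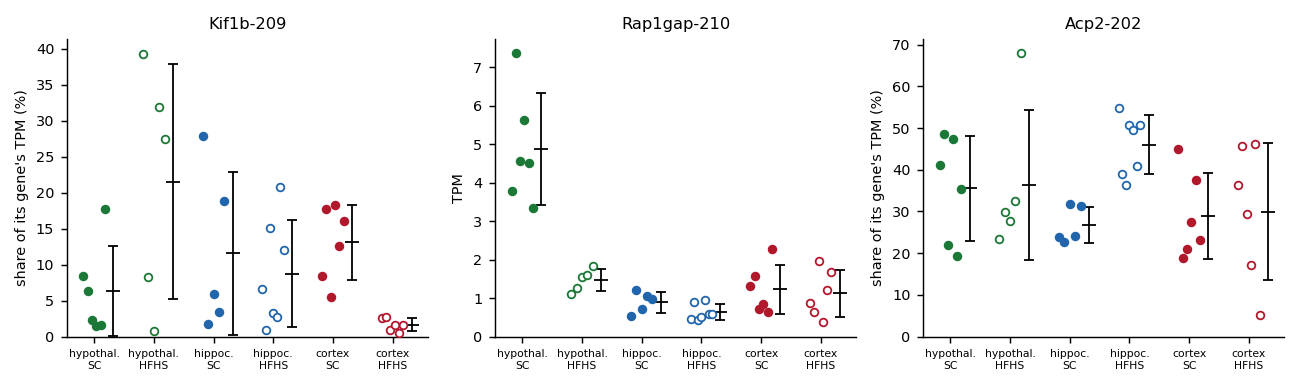
Values in each library (filled, SC; open, HFHS) with group mean and SD, for Kif1b-209 (share of its gene, percent), Rap1gap-210 (TPM) and Acp2-202 (share, percent). Kif1b-209 in cortex, Rap1gap-210 in hypothalamus and Acp2-202 in hippocampus had diet groups that did not overlap, and Kif1b-209 alone was called, by share in cortex. These members were picked by their small p-values, which favours groups that do not overlap.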

How the data were processed

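Quantified RNA of 35 libraries was deposited per sample as estimated counts and TPM per transcript. The authors quantified with Salmon after FastQC, on GRCm38, per the submitters' processing notes, and Salmon's version is not given in the sources used here. The deposited estimated counts divide reads shared by transcripts, and the authors' TPM values correct them for length. Transcripts were typed with GENCODE M21 (139852 of 140948 matched), a release the sources used here do not tie to the authors. Groups come from the labels. Counts were rounded, filtered by filterByExpr and tested with edgeR 4.0.16 (quasi-likelihood, TMM) in R 4.3.3. Shares were tested with limma 3.58.1 on the log2 ratio of a transcript to its gene's other transcripts, each plus 0.5 TPM, where those others reached 1 TPM, which left 35 members without a share test. Adjusted p-values are Benjamini-Hochberg over all transcripts tested, with a threshold of 0.05. Region comparisons on SC were contrasts in 1 model of all 6 groups, and each diet comparison used 1 region. Both tests were tested on simulated data. DESeq2 1.42.0, limma on log2 TPM, other filters, pseudocounts and left-out libraries were alternatives. The members and lists were chosen with earlier results of these data known. Members named are those highest in TPM or share, those of largest difference (between regions, at a mean of at least 5 TPM) or smallest p in each comparison, and up to 4 per list; Kif1b-209, Hnrnpk-217, Prpf31-205, Clk4-207, Ccdc153-205 and others that a count of 5 or fewer singles out were named from their values.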

Additional observations from a re-analysis of the deposited data

Results flagged for a closer look

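Among the members named for a diet comparison, 174 sets of TPM values from groups of 4 to 10 libraries were searched for a highest or lowest library far from its neighbours, and 11 were found, where chance gives about 1 in 20. In cortex, Stk39-202 stood at 11.7 TPM in HFHS 1, where the other HFHS libraries had a median near 0, Ppp1r16a-202 at 2.94 in HFHS 5, and Ddx39b-204 at 2.85 in SC 1 and at 1.497 in HFHS 3. In hippocampus, 3 members stood apart on SC: Arap1-206 at 7.54 TPM and Ptp4a1-202 at 3.18 TPM, both in SC 3, and Akap8l-207 at 6.45 TPM in SC 4. On HFHS in hippocampus, Ppp1r16a-202 was at 0.252 TPM in HFHS 7, Armc6-205 at 4.56 TPM in HFHS 2 and Pard6a-207 at 4.27 TPM in HFHS 3. In hypothalamus, Fbxl20-202 was at 0.357 TPM in HFHS 1. The share of Stk39-202 in cortex was 34.95% on SC and 5.93% on HFHS (limma -2.36 ± 0.49, adjusted p = 0.218), and it was called without cortex HFHS 1 or cortex SC 6.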

How the results depend on the processing

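Values here are the percent of members called. Level: DESeq2 gave 0.135%, 0.0450% and 0.306% for diet in hypothalamus, hippocampus and cortex and 3.20% for hypothalamus against hippocampus. Limma on log2 TPM gave 48.5% and 37.3% for hypothalamus and hippocampus against cortex and 4.06% between them. No filter on low counts gave 11.3% for hippocampus against cortex and 0.536% for hypothalamus against hippocampus. Without the 3 libraries of shortest transcripts, diet in cortex gave 0.0748% and hypothalamus against hippocampus 1.52%. Share: a pseudocount of 0.1 gave 0.0216% for diet in hypothalamus, 0% in cortex and 0.130% for hypothalamus against hippocampus, and a pseudocount of 1 gave 0% and 0.799% for the latter pair. Diet in cortex gave 0% with other transcripts at 5 TPM, 0.0432% with quality weights, 0.173% without the 3 libraries and 0.0382% over members at 2 TPM. Hypothalamus against hippocampus gave 1.58% with quality weights, which, like leaving out the 3 libraries, gave 0.0216% for the interaction of diet with hypothalamus against cortex. Over HFHS libraries, a choice made after seeing the data, level gave 9.94%, 10.9% and 0.540% and share 11.8% and 0.194% for hypothalamus. The share of Ccdc153-205 against cortex reversed at a pseudocount of 0.1, to 0.0858.

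Leaving out 1 library at a time (SC libraries for the region comparisons), level calls ranged over 0% to 0%, 0% to 0.0223% and 0% to 0.0494% for diet in hypothalamus, hippocampus and cortex (2 members without cortex SC 6), 14.3% to 22.7% and 10.7% to 17.4% for hypothalamus and hippocampus against cortex, and 0.389% to 1.17% between them. Share calls ranged over 0% to 0%, 0% to 0.0216% and 0% to 0.151% for diet (7 members without cortex SC 6), 17.4% to 25.03% and 7.17% to 12.9% against cortex, 0.0648% to 0.583% between the others, and 0% to 0.0432% for the interaction of hypothalamus with cortex (2 members without cortex HFHS 6). Members' percent of library TPM ranged over 2.91 to 3.23, 2.66 to 2.87, 3.004 to 3.21, 2.96 to 3.16, 2.04 to 2.11 and 2.14 to 2.36 (hypothalamus SC and HFHS, hippocampus, cortex). As a percent of estimated counts it was 2.10, 1.92, 2.04, 2.10, 1.41 and 1.48. Without mitochondrial transcripts it was 3.12 in hypothalamus on HFHS and 2.45 and 2.67 in cortex. Members at 2 TPM took 1.92% in cortex on SC.

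The labels do not say that replicate numbers pair samples, and they were not taken as pairs. Deviations correlated between -0.0552 and 0.724 across diets (over 0.1 in 0 of 5 pairs in hypothalamus, 4 of 5 in hippocampus and 5 of 6 in cortex) and between -0.0502 and 0.365 across regions. In many diet pairs the same-numbered library was also the closest match of the other diet, and in others it was not. What the same-numbered libraries share is not known from the labels. With the number as a replicate block, 0.259% of members were called by share for hypothalamus against hippocampus and 0% for diet in cortex, where Kif1b-209 was not called. The effect of depth was not tested.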
